A study of Mus musculus with 84 samples.

Results

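The distal zinc finger array of mouse chromosome 4, between 144 and 148 Mb of genome build mm10, was described in RNA from the ventrolateral striatum of 84 mice. Its genes were chosen by position and total count. They are all genes of the deposited table with 4 as the first listed chromosome and a smallest start from 144000001 to 148000000, where at least 84 reads were summed over the 84 libraries. Of 140 genes that start in the window, 37 had that many reads, 1 of them is left out by the rule, and the remaining 36 of the 43629 genes in the table are described here. The other 103 genes were below the limit, and 48 of them had a count of 0 in every library. The lowest totals inside the limit were 103 reads for Gm13146, 108 for Gm13241 and 114 for Gm13238, and the highest outside it were 81 for Zfp985 and 69 each for Gm13231 and Gm13123. The last genes with enough reads before the window, Pramef8 and Gm13080, start at 143412426 and 143611658, and the first after it, Nppa and Gm13054, at 148000722 and 148001091. The window was picked with differences between the lines already known there, so counts of genes that differ between the lines describe it and support nothing.

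The animals were adult, untreated mice of the S4 generation of the SOT and NOT strains, bred by selection on ethanol preference and ethanol withdrawal together. The labels call 44 of them High Drinker (21 females and 23 males) and 40 Low Drinker (18 females and 22 males), and do not say which strain either group is, the age in weeks or which animals share a litter. These labelled groups are called lines here. Library totals ran from 22190363 to 41300401 reads, and levels are given as CPM, reads scaled to the size of the library, 1 CPM being 18.8 to 40.4 reads. The numbers that end the sample titles run in 3 sets of 48, 30 and 6 libraries, with 30, 11 and 3 High Drinker and 18, 19 and 3 Low Drinker animals. Set was a term in every main fit, and values within sets 1 and 2 are given beside those of the genes that passed. Each of 34 markers of 7 cell types had reads in at least 1 library. Between the lines 0 of them passed the threshold (adjusted p under 0.05), where 3.94% of all tested genes did. So few markers cannot show that the lines had the same mix of cells. The summed level of the 10 markers of medium spiny neurons, the projection neurons of the striatum, ran from 465 to 10930 CPM in High Drinker animals and from 264 to 9363 CPM in Low Drinker animals (medians 3618 and 3179 CPM). The level thus differed widely between libraries of the same line. In bulk RNA fewer cells of a type and less RNA per cell cannot be told apart. With a medium spiny neuron score as a covariate the number of window genes called stayed at 13. It was also 13 without 5 libraries set apart on grounds not shown here (High Drinker animal 17 and Low Drinker animals 8, 32, 33 and 34).

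KRAB zinc finger proteins are the largest family of mammalian transcription repressors. Their tandem C2H2 zinc fingers read DNA, often in transposable elements, and their KRAB domain recruits the corepressor TRIM28 (KAP1), which brings in the histone methyltransferase SETDB1 and heterochromatin proteins. The genes arise by repeated local duplication, and distal chromosome 4 of the mouse holds one of the large arrays, a region long studied for loci that control endogenous retroviruses.

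The 36 genes comprise 10 named zinc finger genes, 6 predicted or unnamed genes, 13 pseudogenes and 7 other named coding genes at the edges of the array, with 22 on the plus strand and 14 on the minus strand. A coding exon that holds the first part of the KRAB domain (the A box) was found in 11 of them: all 10 named zinc finger genes and Gm13212. In each it is 127 bases long. The exons of Zfp984 and of 5 relatives are shown, 5′ to 3′ on the coding strand, because they show how alike the genes are whose read counts are compared here. They were taken from the GENCODE transcripts for mm10, and capitals mark each base that differs from Zfp984. The exon of Zfp984 lies at chr4:147757702-147757828 (minus strand), of Gm13212 at chr4:145620558-145620684 (plus), of Zfp992 at chr4:146464404-146464530 (plus), of Zfp982 at chr4:147510753-147510879 (plus), of Zfp979 at chr4:147615280-147615406 (minus) and of Zfp933 at chr4:147828670-147828796 (minus).
Zfp984: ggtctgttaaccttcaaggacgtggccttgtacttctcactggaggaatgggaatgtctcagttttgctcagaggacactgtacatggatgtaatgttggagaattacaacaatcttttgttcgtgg
Gm13212: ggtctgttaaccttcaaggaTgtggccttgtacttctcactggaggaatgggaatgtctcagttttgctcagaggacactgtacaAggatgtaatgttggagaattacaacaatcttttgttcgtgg
Zfp992: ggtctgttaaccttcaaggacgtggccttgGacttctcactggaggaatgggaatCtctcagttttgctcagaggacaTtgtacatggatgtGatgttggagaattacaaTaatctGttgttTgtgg
Zfp982: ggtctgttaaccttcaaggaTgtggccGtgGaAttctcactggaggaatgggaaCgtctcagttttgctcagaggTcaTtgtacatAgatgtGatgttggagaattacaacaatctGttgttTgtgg
Zfp979: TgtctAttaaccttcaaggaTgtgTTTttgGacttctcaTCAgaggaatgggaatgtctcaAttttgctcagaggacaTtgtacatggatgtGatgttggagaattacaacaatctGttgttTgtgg
Zfp933: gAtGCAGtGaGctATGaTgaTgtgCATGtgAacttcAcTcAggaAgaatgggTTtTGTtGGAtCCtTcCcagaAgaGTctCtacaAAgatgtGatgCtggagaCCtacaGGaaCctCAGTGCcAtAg

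The exon of Gm13212 differs from that of Zfp984 at 2 of 127 bases, although the genes lie at opposite ends of the array and on opposite strands. Zfp992 differs from Zfp984 at 7 bases, Zfp982 at 11, Zfp979 at 15 and Zfp933 at 54. Zfp933 is the outlier of the family: it differs from the other 10 exons at 52 to 57 bases, whereas the 45 pairs among those 10 differ at 0 to 16. The exons of Zfp991 and Zfp993 are the same at every base, and each differs from that of Zfp992 at 1. Over the whole coding sequence Zfp992 and Zfp991, each of 1719 bases with 11 C2H2 fingers, are 99.5% identical and differ by 8 edits. Zfp984 (1641 bases, 11 fingers) is 87.2% identical to Zfp992 and 60.6% to Zfp933 (1404 bases, 12 fingers). Gm13212 has the most fingers, 20 in 2397 coding bases, Zfp982 has 7, and Zfp979 has 3. The annotated coding sequence of Zfp993, which is not a whole number of codons, holds 2 fingers. Gm13178 and Gm16503 hold no C2H2 finger, and Gm16503 is annotated with a coding sequence of only 309 bases.

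Near-identical copies limit what a read of 100 bases can tell. All 100-base windows of each gene's annotated transcripts were compared with the transcripts of every other annotated gene. In 12 of the 36 genes 0 windows were shared, and in 24 at least 1 was. Zfp933, Gm16503 and Gm13178 shared 0%, and Zfp982 shared 3.1% of its windows. Zfp984 shared 30.9%, mostly with Gm13212 (738 windows), and Gm13212 shared 27.4%. Zfp992 shared 28.6%, 1105 of those windows with Zfp991. The shares were 70.3% for Zfp991, 71.9% for Zfp993 and 77.3% for Znf41-ps, and that of Zfp979 was 21.5%. The authors' counting could have split or dropped reads of these copies, so the values of Zfp991, Zfp993 and Znf41-ps are uncertain, and to a lesser degree those of Zfp984, Gm13212, Zfp992 and Zfp979. Zfp984 and the long noncoding gene Gm20707 overlap in exons on the same strand, and no other pair of window genes with annotated exons overlaps.

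**Figure D1:**
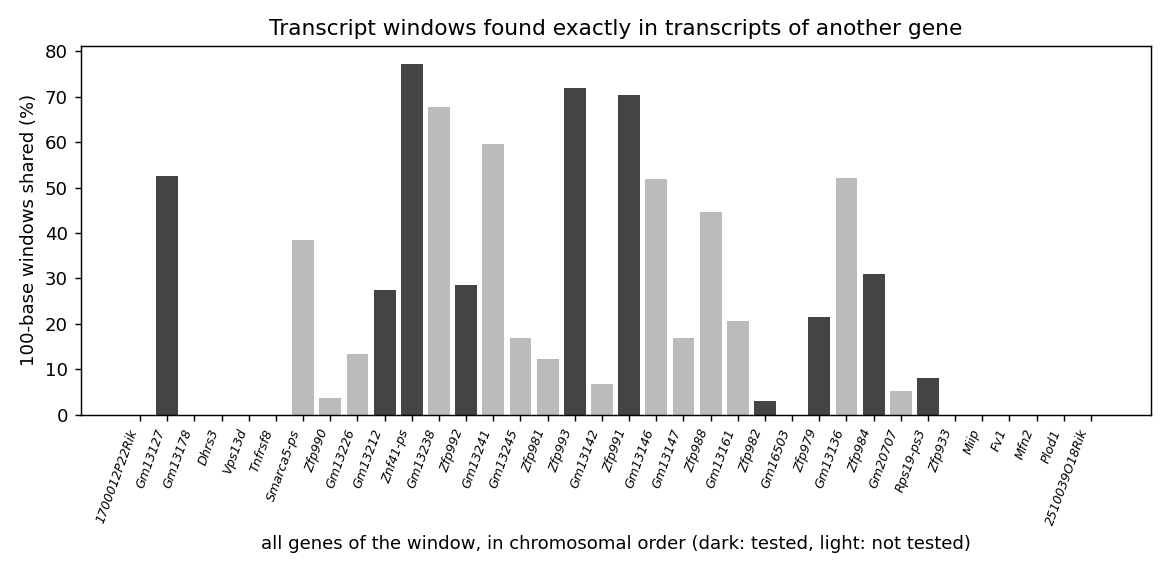
Share of each gene's 100-base transcript windows that occur exactly in a transcript of another gene (vertical axis, percent), for the 36 genes in chromosomal order. Dark bars are tested genes and light bars genes with too few reads to test. The bars of Zfp933, Gm16503, Gm13178 and the 7 other named coding genes are at 0, and those of Znf41-ps, Zfp993 and Zfp991 are above 70.

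In ventrolateral striatum the array was expressed at low levels, Zfp933 apart. On the scale of CPM per kilobase of the counted gene length, the mean level of Zfp933 was 3.40, and the other 6 tested zinc finger genes lay between 0.165 (Zfp979) and 0.379 (Zfp984). The mitochondrial fusion gene Mfn2 at the distal edge had a mean of 52.5 CPM per kilobase. Of the 36 genes, 21 had enough reads for the test between the lines, and 15 did not.

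Between the lines, 13 of the 21 tested genes passed the threshold (edgeR quasi-likelihood test with Benjamini-Hochberg adjustment over all 17071 tested genes, adjusted p under 0.05), where 3.94% of all tested genes did. Higher in High Drinker animals were 8 genes, beside 1.86% of all tested genes, and lower were 5, beside 2.08%. The genes that rose were Zfp984, Zfp982, Zfp933, Gm16503, Znf41-ps, Vps13d, Miip and Mfn2, and those that fell were Zfp992, Zfp993, Zfp979, Gm13178 and Gm13212. Both directions thus occurred among related genes of the same array. Zfp984 shares windows with Gm13212, and Znf41-ps with Zfp992 and Zfp993. How reads of shared windows were counted is not known, so opposite directions among these copies are uncertain. The median size of the change, without its sign, was 0.47 on the log2 scale over the 21 genes and 0.06 over all tested genes. For all 21 genes the values of the 2 lines overlapped. The direction of all 13 changes was the same in females, in males and in set 1, and the same in set 2 for the 12 genes with enough reads there. Fewer genes passed in these smaller fits: 1 in females, 2 in males, 4 in set 1 and 6 in set 2. The 1 in females was 1700012P22Rik, which had too few reads for the main fit. Its log2 fold change there was -2.49 (adjusted p = 0.00839 in edgeR's quasi-likelihood test). None of the 13 genes passed in females, where Zfp982 had the lowest adjusted p among them (0.0588, same test). The share of all tested genes that passed in these fits is not given, so the counts cannot be set beside it.

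**Figure D2:**
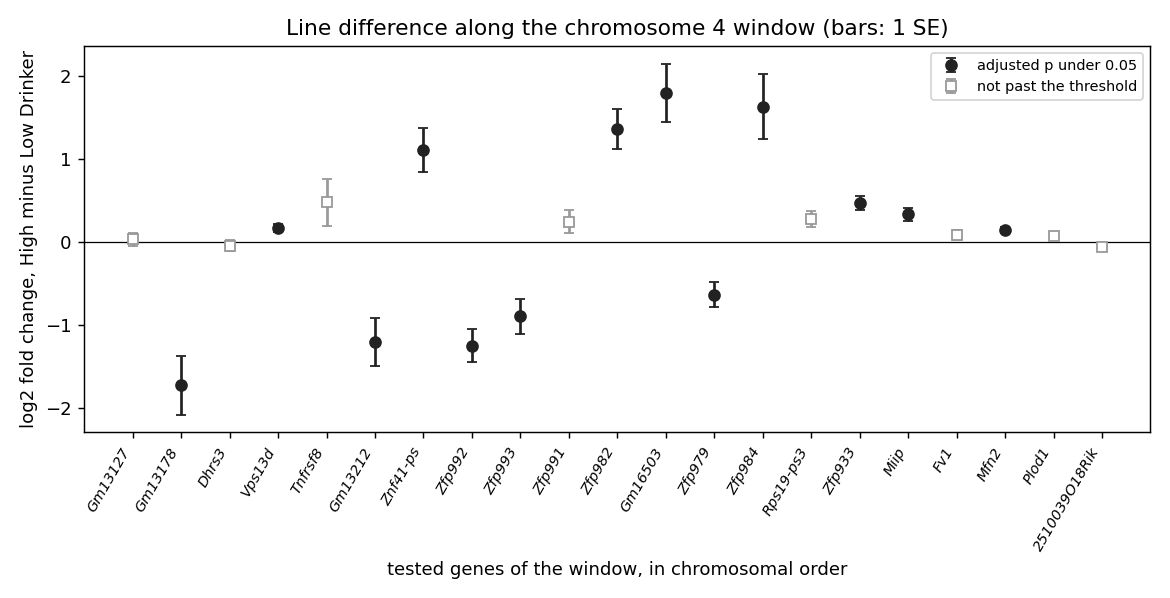
Fitted log2 fold change of High Drinker minus Low Drinker (vertical axis, points, with bars of 1 SE) for the 21 tested genes in chromosomal order. Filled points passed the threshold. The lowest points are Gm13178 and Zfp992 in the proximal part and the highest are Gm16503 and Zfp984 in the distal part.

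Zfp992 showed the clearest fall. It is a KRAB gene with 11 fingers at 146449023 to 146470292. In the 44 High Drinker animals it ran from 0.0915 to 2.35 CPM with a median of 0.525, and in the 40 Low Drinker animals from 0.219 to 3.44 CPM with a median of 1.64. Below the Low Drinker median lay 40 of the 44 High Drinker animals. The means were 0.791 ± 0.605 and 1.63 ± 0.628 CPM (SD), and the log2 fold change was -1.25 ± 0.20 (SE, adjusted p = 1.3e-05 in edgeR's quasi-likelihood test). Within set 1 it was -1.09 (adjusted p = 0.0308) and within set 2 -2.06 (adjusted p = 4.27e-05). Its near-copy Zfp991, which lies distal to it, had means of 0.886 ± 0.375 and 0.725 ± 0.269 CPM, and its log2 fold change of 0.25 ± 0.14 did not pass (adjusted p = 0.354).

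Zfp993 and Zfp979 also fell. Zfp993 ran from 0 to 0.799 CPM in High Drinker animals (median 0.15) and from 0.0632 to 0.852 CPM in Low Drinker animals (median 0.372), with a log2 fold change of -0.89 ± 0.21 (adjusted p = 0.00529). It had 3 or fewer reads in 14 of 44 High Drinker and 2 of 40 Low Drinker libraries. Zfp979, on the minus strand between the genes that rose, ran from 0.0612 to 1.20 CPM (median 0.555) in High Drinker animals and from 0.289 to 1.67 CPM (median 0.809) in Low Drinker animals. Of the 44 High Drinker animals, 39 were below the median of the other line, and its log2 fold change was -0.63 ± 0.15 (adjusted p = 0.00632). Neither gene passed within set 1 or set 2 alone, where the changes were -0.94 and -1.09 for Zfp993 and -0.53 and -0.77 for Zfp979.

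Zfp984 rose in High Drinker animals and took widely different values within each line. This gene, on the minus strand from 147753974 to 147809788, ran from 0 to 4.27 CPM in High Drinker animals with a median of 1.40, and from 0 to 2.33 CPM in Low Drinker animals with a median of 0.0947. The low values were mostly those of Low Drinker animals: 24 of 40 Low Drinker and 6 of 44 High Drinker libraries had 3 or fewer reads. The means were 1.61 ± 1.02 and 0.549 ± 0.756 CPM, with a log2 fold change of 1.63 ± 0.39 (adjusted p = 0.00623). The change was 1.71 in set 1 (adjusted p = 0.0966) and 2.17 in set 2 (adjusted p = 0.172), so the call did not hold within either set alone, and limma-voom put the change at 2.88. It was 2.05 in females and 1.32 in males, a difference with an unadjusted p of 0.432 in edgeR's interaction term. Gm20707, which shares exon bases with it, had too few reads to test, and its means were 0.217 ± 0.108 and 0.123 ± 0.0672 CPM.

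Zfp982, with 7 fingers and almost no shared windows, rose as well. It ran from 0.0314 to 1.21 CPM (median 0.641) in High Drinker animals and from 0.0293 to 0.969 CPM (median 0.162) in Low Drinker animals, and 37 of 44 High Drinker animals were above the Low Drinker median. The means were 0.616 ± 0.322 and 0.23 ± 0.214 CPM, and the log2 fold change was 1.36 ± 0.24 (adjusted p = 8.43e-05). It passed within set 1 (1.32, adjusted p = 0.0338) and within set 2 (1.99, adjusted p = 0.00287).

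Zfp933, the diverged and most highly expressed zinc finger gene of the array, rose by less and was measured best. It ran from 8.04 to 24.2 CPM (268 to 793 reads, median 16.9 CPM) in High Drinker animals and from 6.52 to 21.6 CPM (195 to 786 reads, median 11.2 CPM) in Low Drinker animals. Only 4 of 44 High Drinker animals were below the Low Drinker median. The means were 16.8 ± 3.79 and 12.03 ± 3.29 CPM, with a log2 fold change of 0.47 ± 0.08 (adjusted p = 9.11e-05). The change was 0.52 in set 1 (adjusted p = 0.0119) and 0.56 in set 2 (adjusted p = 0.00905).

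**Figure D3:**
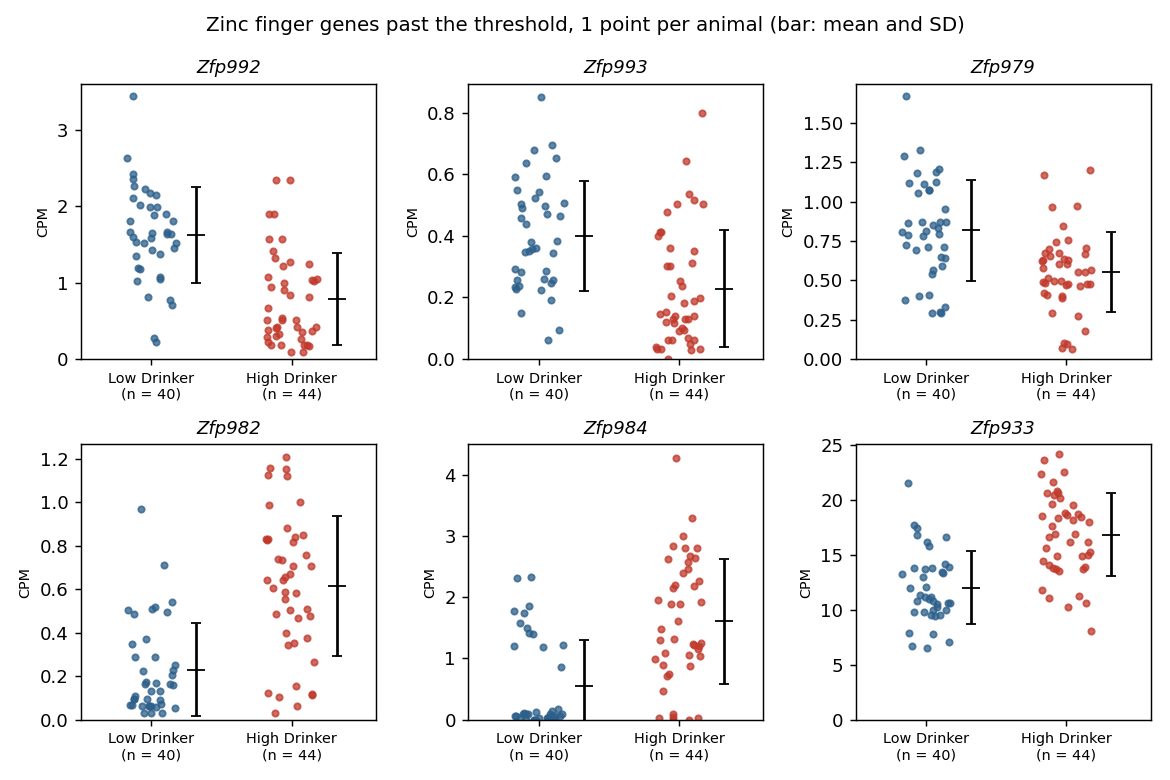
CPM (vertical axis, a scale of its own in each panel, starting at 0) of the 6 zinc finger genes past the threshold, 1 point per animal, for 40 Low Drinker and 44 High Drinker animals, with the mean and SD beside the points (an SD that would go below 0 is clipped at the axis). Zfp992, Zfp993 and Zfp979 are lower and Zfp982, Zfp984 and Zfp933 higher in High Drinker animals, and the Low Drinker points of Zfp984 lie either near 0 or well above it.

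Among the predicted genes, Gm16503 had the largest rise and Gm13178 the largest fall among the 21 tested genes of the window. These genes, like Gm13212 and Znf41-ps below, were named after their values were seen. Gm16503 has a single exon and lies between Zfp982 and Zfp979. It ran from 0 to 1.90 CPM (median 0.684) in High Drinker animals and from 0 to 1.32 CPM (median 0.0765) in Low Drinker animals, with a log2 fold change of 1.80 ± 0.35 (adjusted p = 0.000422). The change was 2.10 in set 1 (adjusted p = 0.0116) and 2.16 in set 2 (adjusted p = 0.0809). Gm13178 lies at the proximal end, from 144703191 to 144721404, and ran from 0 to 1.33 CPM (median 0.0772) in High Drinker animals and from 0 to 2.25 CPM (median 0.655) in Low Drinker animals. Its log2 fold change was -1.72 ± 0.36 (adjusted p = 0.00105), with -1.49 in set 1 (adjusted p = 0.121) and -3.42 in set 2 (adjusted p = 0.00127). It had 0 reads in 19 of 44 High Drinker and 2 of 40 Low Drinker libraries. Gm13212, the copy whose KRAB exon is closest to that of Zfp984, moved the other way from it, with means of 0.122 ± 0.141 and 0.255 ± 0.126 CPM and a log2 fold change of -1.20 ± 0.28 (adjusted p = 0.00564). The call was lost within set 1 (-1.12, adjusted p = 0.179), and in set 2 it had too few reads for the fit. It had 3 or fewer reads in 27 of 44 High Drinker and 6 of 40 Low Drinker libraries. The pseudogene Znf41-ps, which shares most of its windows with Zfp991, rose by 1.11 ± 0.26 on the log2 scale (adjusted p = 0.00516), with 1.07 in set 1 (adjusted p = 0.154) and 1.64 in set 2 (adjusted p = 0.0453).

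**Figure D4:**
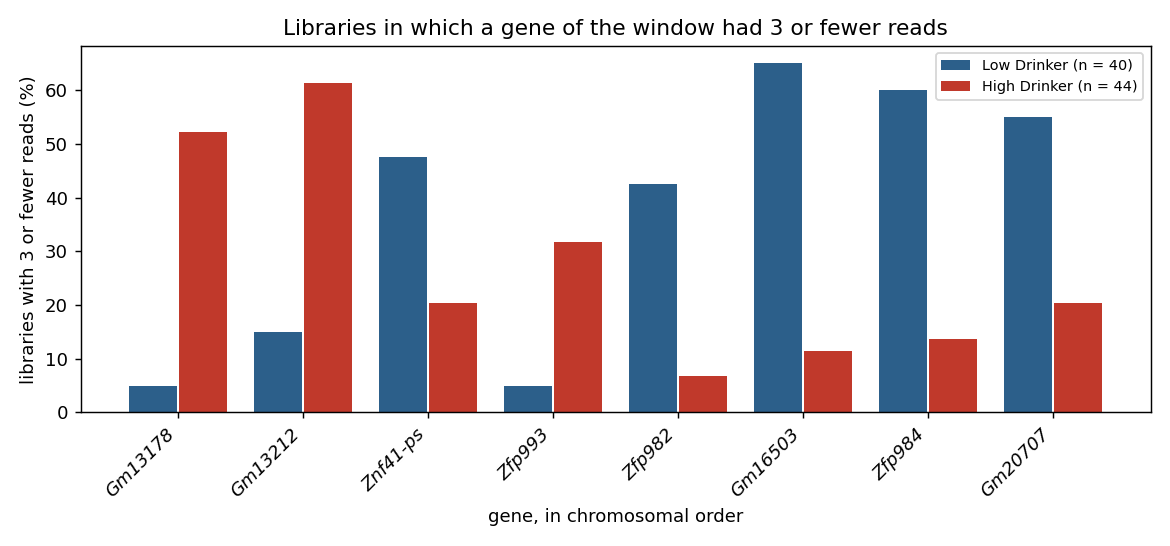
Percent of Low Drinker (n = 40) and High Drinker (n = 44) libraries with 3 or fewer reads (vertical axis), for the window genes with a total of at least 450 reads and at least 10 such libraries, in chromosomal order. High Drinker bars are the taller ones for Gm13178, Gm13212 and Zfp993, and Low Drinker bars for Znf41-ps, Zfp982, Gm16503, Zfp984 and Gm20707.

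At the edges of the array, 3 of the 7 other named coding genes rose and 4 did not pass. Mfn2, a GTPase that fuses mitochondrial outer membranes, ran from 216 to 327 CPM (median 282) in High Drinker animals and from 167 to 318 CPM (median 261) in Low Drinker animals, with a log2 fold change of 0.15 ± 0.03 (adjusted p = 0.0031). Miip, which encodes an inhibitor of cell migration and invasion, had means of 21.8 ± 5.21 and 17.2 ± 3.94 CPM and a log2 fold change of 0.34 ± 0.08 (adjusted p = 0.00306). Vps13d, a lipid transfer protein needed for mitochondrial size and clearance, had means of 169 ± 21.1 and 152 ± 21.3 CPM and a log2 fold change of 0.17 ± 0.04 (adjusted p = 0.0107). Miip passed within set 2 (0.57, adjusted p = 0.00424) and not within set 1 (0.25, adjusted p = 0.263). Mfn2 passed in neither, at 0.14 in set 1 (adjusted p = 0.186) and 0.14 in set 2 (adjusted p = 0.365). Vps13d also passed in neither, at 0.20 (adjusted p = 0.124) and 0.16 (adjusted p = 0.738). Fv1, a retrovirus restriction factor that descends from a retroviral gag gene and starts just beside Miip on the other strand, had means of 4.53 ± 0.93 and 4.21 ± 0.719 CPM and a log2 fold change of 0.09 ± 0.06 (adjusted p = 0.482). Plod1, a collagen lysyl hydroxylase, had 0.08 ± 0.04 (adjusted p = 0.35). Dhrs3, which reduces retinaldehyde to retinol, had -0.04 ± 0.06 (adjusted p = 0.802). Tnfrsf8, the cytokine receptor CD30, had 0.48 ± 0.28 (adjusted p = 0.377). The unnamed gene 2510039O18Rik at the distal end had means of 29.5 ± 2.68 and 30.97 ± 2.45 CPM and a log2 fold change of -0.06 ± 0.03 (adjusted p = 0.254).

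With the array split at 147 Mb, a position chosen after the values were seen, so that the counts only describe it, the proximal part held 9 tested genes, of which 2 rose (Vps13d and Znf41-ps) and 4 fell, and the distal part held 12, of which 6 rose and 1 fell (Zfp979). By role, 6 of the 7 tested named zinc finger genes passed, 3 in each direction. Of the 4 tested predicted genes 1 rose and 2 fell, and of the 3 tested pseudogenes 1 rose. The processed pseudogene Rps19-ps3, at 0.28 ± 0.09 on the log2 scale (adjusted p = 0.0609), was just outside the threshold.

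The 15 genes not tested had 103 to 456 reads in all and comprised 10 pseudogenes, 3 zinc finger genes (Zfp990, Zfp981 and Zfp988), 1700012P22Rik and Gm20707. In a fit without the filter on low counts, over 21074 genes of which 3.17% passed, 21 of the 36 window genes passed, 12 higher and 9 lower. Among the 15, 4 were higher and 4 lower. Zfp990 had 0 reads in 30 of 44 High Drinker and 2 of 40 Low Drinker libraries, with at most 10 reads in any, and a log2 fold change of -2.00 in that fit (adjusted p = 5.03e-05). Zfp988 went the other way, with 0 reads in 11 of 44 High Drinker and 24 of 40 Low Drinker libraries and a log2 fold change of 1.53 (adjusted p = 0.00673). These values rest on a few reads per library.

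The spread between animals of a line was wide for several of these genes. The biological coefficient of variation, edgeR's estimate of the spread between animals beyond counting error, had a median of 0.381 over the 21 tested genes and 0.166 over all tested genes. It was highest for Zfp984 (1.24), Gm13178 (1.21) and Gm16503 (1.09), and lowest for 2510039O18Rik (0.082). Among genes with a mean under 1 CPM the median was 0.697 for the 10 window genes and 0.324 for all tested genes, and at 1 CPM or more it was 0.186 for 11 window genes and 0.148 for all.

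Separate expression levels among animals were sought as a gap of at least 1 between neighbouring animals in sorted log2(CPM + 0.5), with 9 or more animals on each side. By that rule 0 of the 21 tested genes had separate levels, beside 0.305% of all tested genes. With a pseudocount of 0.1 in place of 0.5, Zfp984 had them, with a gap of 1.09, where 0.486% of all tested genes did. For Zfp984 no animal lay between 0.168 and 0.471 CPM. Above the gap were 38 of 44 High Drinker and 13 of 40 Low Drinker animals. In set 1 these were 26 of 30 and 5 of 18, in set 2 they were 11 of 11 and 7 of 19, and in set 3 they were 1 of 3 and 1 of 3. By sex they were 17 of 21 female and 21 of 23 male High Drinker animals, and 4 of 18 female and 9 of 22 male Low Drinker animals. Animals above and below this gap thus occurred in both lines and both sexes. With the pseudocount of 0.5 the gap of Zfp984 was 0.539, so it also failed at a limit of 0.7.

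Low counts of 4 genes fell in the same or in opposite animals. The genes are those with at least 1000 reads in all that had 3 or fewer reads in 20 to 64 of the 84 libraries, a limit set after the values were seen. Zfp984 had 3 or fewer reads in 30 libraries and Gm16503 in 31, and 28 of these libraries were the same. Zfp982 was that low in 20 libraries, of which 19 were low for Zfp984 too. Gm13178 was that low in 25 libraries, and none of them was among the 30 for Zfp984: 0 of 84 libraries were low for both, and 29 were low for neither. Of the 25 libraries low for Gm13178, 23 were High Drinker, and of the 30 low for Zfp984, 24 were Low Drinker. The 29 libraries low for neither were 15 High Drinker and 14 Low Drinker animals. Within set 1 the counts were 15 low for Gm13178, 14 low for Zfp984, 0 for both and 19 for neither, and within set 2 they were 9, 12, 0 and 9. None of the windows of Gm13178 is shared with another gene, 30.9% of those of Zfp984 are, and the 2 genes start 3.051 Mb apart. Why the low counts fell in different animals was not tested. The joint counts are over libraries of animals that may be related, so no test was made. With Zfp982 and with Gm16503 too, 0 libraries were low for Gm13178 and the other gene at once. The separation was less strict at a limit of 10 reads, where Gm13178 was low together with Zfp984 in 1 library, with Zfp982 in 5 and with Gm16503 in 5. At 0 reads the count was 0 for all 3 pairs, with 21 libraries for Gm13178, 7 for Zfp984 and 13 for Gm16503. Zfp982 had reads in every library, so the 0 of its pair was fixed in advance.

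**Figure D5:**
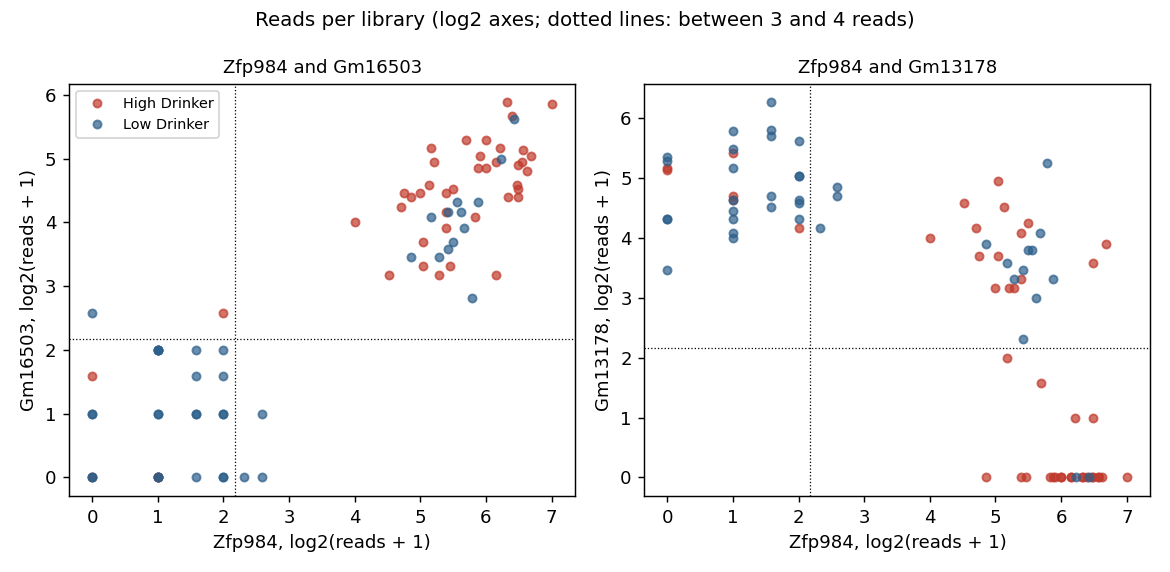
Reads per library as log2(reads + 1), Zfp984 on the horizontal axes against Gm16503 (left) and Gm13178 (right), 1 point per animal, with dotted lines between 3 and 4 reads and points of equal counts drawn over each other. At left 28 animals are low for both genes and 51 for neither, and at right the corner low for both genes holds 0 of the 84 animals.

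No sex difference passed in the array. In edgeR's test of males against females 0 of the 21 genes passed, beside 0.0996% of all tested genes, and 1 (Dhrs3) had an unadjusted p under 0.05. DESeq2 called 0 as well. The line difference was not shown to depend on sex: the interaction term called 0 of the 21, beside 0.0% of all tested genes, with 0 at an unadjusted p under 0.05, and DESeq2 called 0. In the test of variability, limma on absolute deviations from the median of line and sex, 0 of the 21 passed, beside 0.0117% of all tested genes. Unadjusted p was under 0.05 for 4 of them, Gm13178, Gm13212, Zfp992 and Zfp993, with the larger log2 deviations in High Drinker animals for each. The share of all tested genes at that limit is not given. All 4 genes fell in High Drinker animals. In CPM the High Drinker SD was smaller for Gm13178 (0.385 against 0.512) and Zfp992 (0.605 against 0.628). It was larger for Gm13212 (0.141 against 0.126) and Zfp993 (0.190 against 0.178). With a prior count of 0.5 in place of 2, Gm13178 passed.

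The neighbouring stretches of chromosome 4 and the partner genes were set beside the array, and their shares are to be read against the 3.94% of all tested genes that passed. From 140 to 144 Mb, 9 of 47 tested genes passed (19.1%, median size of change 0.15), and from 148 to 152 Mb, 17 of 54 (31.5%, median size 0.09). Of the 367 tested genes named Zfp elsewhere in the genome 11 passed (3.0%), 9 higher and 2 lower, with a median size of 0.05. Among 24 genes of the silencing machinery that KRAB proteins recruit, 2 rose (8.33%, where 1.86% of all tested genes were higher), both by little, and the median log2 fold change was 0.04, beside 0.00 over all tested genes. Morc2a, a chromatin compactor of the HUSH pathway, had a log2 fold change of 0.08 ± 0.02 (adjusted p = 0.00891). Hdac1, a histone deacetylase that also lies on chromosome 4, starting at 129516104, had 0.20 ± 0.05 (adjusted p = 0.0148). The corepressor Trim28 had means of 160 ± 13.4 and 158 ± 12.2 CPM and a log2 fold change of 0.03 ± 0.03 (adjusted p = 0.663). Setdb1 had -0.03 ± 0.03 (adjusted p = 0.635).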

How the data were processed

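Ventrolateral striatum was dissected by hand from frozen brains of 84 animals, Trizol RNA was amplified to cDNA (Ovation RNA-Seq v2), and TruSeq DNA libraries of this cDNA were read as single 100 base reads, per the labels' protocols. The kits do not mark strand, and amplification duplicates are counted as reads. The values deposited by the authors are raw counts of reads for each gene. Per the submitters' processing notes, STAR, featureCounts and genome build mm10 were used. Not given in the sources used here are tool versions and how strand and reads with several matches were handled. Of 43629 entries 0 named no gene. Library totals were 22190363 to 41300401 reads.

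Drinker group and sex are as labelled, and the sheet sets are inferred from the numbering of the titles. The groups are called lines here, although the labels do not match them to the strains. Line, sex and interaction were tested with the quasi-likelihood F-test of edgeR 4.0.16 (R 4.3.3), with TMM scaling, genes kept by filterByExpr, terms for sheet set, sex and line, and Benjamini-Hochberg adjustment over 17071 genes at a threshold of 0.05, and variability with limma 3.58.1. Alternatives used DESeq2 1.42.0, limma-voom, sva 3.50.0 with 5 surrogate variables, other normalization and filters, and subsets of libraries. CPM are counts scaled to the TMM library size. P-values treat animals as independent, and their relatedness is not given. The fit was tested on simulated data. Gene symbols, exons and transcripts come from GENCODE for mm10, with symbols for 42462 identifiers. Sequences and plots used Python 3.11.15, Biopython 1.88 and matplotlib 3.10.9.

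The window genes, the lists and the comparisons were chosen with earlier results of these data known. Genes were named where they passed the line test with a mean of at least 1 CPM, were tested and named Zfp, had separate levels, or were among the 5 remaining coding genes with the highest mean CPM. Exceptions are stated.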

Additional observations from a re-analysis of the deposited data

How the results depend on the processing

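The number of window genes past the threshold between the lines was 13 under RLE normalization, DESeq2, without the 5 libraries and with the medium spiny neuron score. With limma-voom, without the set term, without set 3 and with 5 surrogate variables it was 14, as Rps19-ps3 passed too. It was 21 without the filter on low counts, 4 in set 1, 6 in set 2, 1 in females and 2 in males, in fits with fewer animals. The genes higher in High Drinker animals were then 3 in set 1, 4 in set 2, 0 in females and 1 in males. The lower ones were 9 without the filter, 1 in set 1, 2 in set 2, 1 in females and 1 in males. The gene lower in females was 1700012P22Rik, which is not among the 13. Apart from the fit without the filter, no share of all tested genes is given for these alternatives. The 13 changes kept their direction in the alternatives run, except that Gm13212 had too few reads for a fit in set 2. All alternatives used libraries in which the 13 genes were picked. Some values near 0 changed sign: Gm13127 was -0.009 without the set term, -0.006 in set 2 and -0.062 in females, Dhrs3 was 0.033 in set 2, and Fv1 was -0.021 in set 1, and the cause was not tested. The variability test called 1 gene with a prior count of 0.5, and 1 gene had separate levels with a pseudocount of 0.1. Libraries with 3 or fewer reads of both Gm16503 and Zfp984 were 28, and 3 at 0 reads and 33 at 10 or fewer, alternatives chosen after seeing the data. No paired analysis was possible because the replicate numbers were given in accession order and pair no animals. Depth limits the genes with a mean under 1 CPM, which is 18.8 to 40.4 reads in a library.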
